A study of Mus musculus with 6 samples.

Results

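The genes examined here encode the subunits of voltage-gated sodium channels, voltage-gated calcium channels and the hyperpolarization-activated HCN channels. Symbols were taken by their names: the Scn genes ending in a or b, Cacna1a to Cacna1i, and all Cacna2d, Cacnb and Hcn genes. Of 34 matching symbols, 28 had a value of at least 3.32 (the log2 of 10) in 3 or more of the 6 libraries, out of 15055 genes tested and 47593 symbols in all. The cells were primary neurons from the hippocampus of wild-type (WT) mice, kept in Neurobasal with B27 and GlutaMAX. On culture day 10 they received 6 µg/mL of apolipoprotein E (apoE) particles for 24 h, made either by microglia (3 samples) or by astrocytes (3 samples). Untreated neurons were not analysed here, and every difference is that of microglial against astrocytic apoE. The age of the mice is not given in the sources used here, and nothing in the labels ties the 3 samples of a group to separate cultures, so the p-values measure the spread between these samples, which may be technical.

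A voltage-gated channel opens its pore when the membrane potential changes. Sodium channel alpha subunits carry the upstroke of the action potential, and beta subunits alter their gating and surface expression. Calcium channels admit the calcium that triggers transmitter release, dendritic signalling and gene expression, with an alpha1 pore subunit assisted by beta and alpha2delta subunits. HCN channels open on hyperpolarization and set the resting excitability of hippocampal neurons.

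Channel transcripts differed little between the particle types. Of the 28 genes, Hcn2 was higher with microglial apoE, and Cacna1h and Cacna2d1 were lower, with folds of 1.10, 0.905 and 0.935. These were the 3 members called at a limma Benjamini-Hochberg adjusted p under 0.05, or 10.7% of the 28, where 24.9% of all tested genes were called. By direction, 3.57% of members were called higher (13.0% of all tested genes) and 7.14% lower (11.8% of all). The median log2 fold change of the members was -0.02, and the median size of a difference was 0.03, against 0.04 over all tested genes. The groups did not overlap for 8 members (28.6%, against 38.9% of all tested genes), 3 of them higher (20.1% of all) and 5 lower (18.8% of all). An unadjusted limma p under 0.05 was reached by 2 members with higher and 5 with lower values, and by 36.1% of all tested genes.

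**Figure D1:**
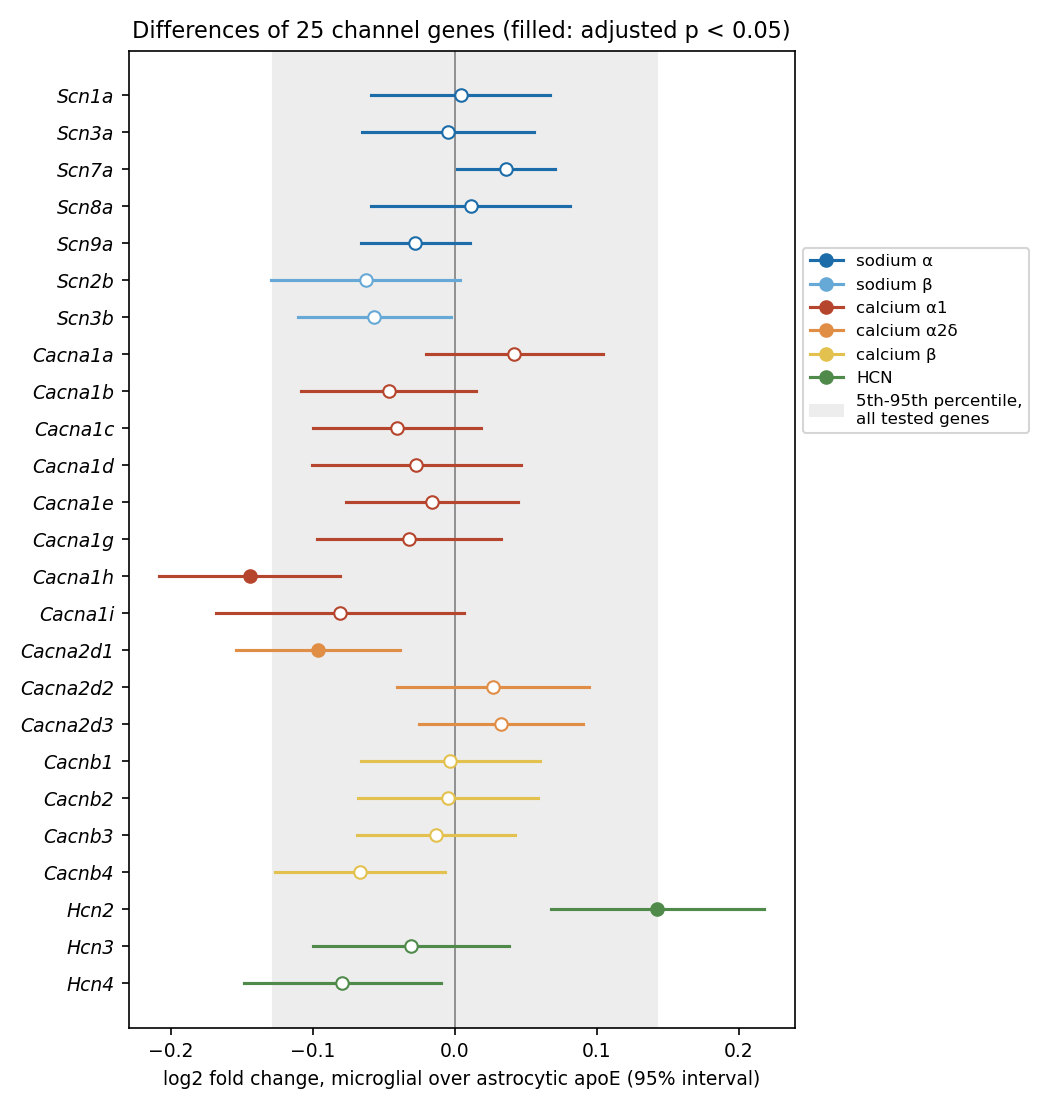
Log2 fold change, microglial over astrocytic apoE, of 25 of the 28 channel genes with its 95% limma interval (3 libraries per group); filled points passed an adjusted p under 0.05, and the grey band spans the 5th to 95th percentile of all tested genes (-0.13 to 0.14). Hcn2 lies at 0.14 and Cacna1h at -0.14, at the edges of the band, and 17 of the 25 lie within 0.05 of 0.

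In the sodium channel group, none of the 9 tested genes passed the test. The alpha subunits Scn3a, Scn8a and Scn1a, of which Scn3a predominates early in development and Scn8a later at the axon initial segment, differed by -0.005, 0.01 and 0.004 on the log2 scale. Scn3a stood at 10.55, 10.48 and 10.53 with microglial apoE and at 10.56, 10.52 and 10.49 with astrocytic apoE (log2 values). Scn8a stood at 10.50, 10.38 and 10.54 with microglial apoE, against 10.44, 10.45 and 10.49 with astrocytic apoE. Both genes overlapped between the groups, and microglial replicate 2 was the lowest library for each. The log2 ratio of Scn8a to Scn3a averaged -0.048 ± 0.058 with microglial and -0.064 ± 0.059 with astrocytic apoE (SD, n = 3 each, exact two-sided permutation p = 0.70, where the smallest p that 3 against 3 allows is 0.10). That ratio is not corrected for length, so it bears only on the difference between groups.

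Scn7a, which encodes a sodium-sensing channel rather than a voltage-gated one, was weakly expressed. It stood at 4.50, 4.55 and 4.50 with microglial apoE and at 4.48, 4.47 and 4.49 with astrocytic apoE. The microglial libraries were all above the astrocytic ones, but the difference did not pass (log2 fold change 0.04 ± 0.017 SE, limma adjusted p = 0.12). Scn9a, best known from sensory neurons, was also low, at 4.98 ± 0.004 with microglial apoE and 5.01 ± 0.03 with astrocytic apoE (SD, n = 3 each). Among beta subunits, Scn3b stood at 12.10 in each of the 3 microglial libraries and at 12.16, 12.18 and 12.13 in the astrocytic ones. The groups did not overlap, and the difference did not pass (-0.06 ± 0.026 SE, limma adjusted p = 0.12). Scn2b (-0.06, limma adjusted p = 0.16) did not pass either.

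The naming pattern misses the principal sodium channel of excitatory neurons, Scn2a, because the files list it under its older symbol Scn2a1. It is described as a related gene, and was singled out after its values were seen. Scn2a1 stood at 11.45, 11.34 and 11.47 with microglial apoE and at 11.54, 11.52 and 11.47 with astrocytic apoE. The microglial values were the lower, with the highest of them at 11.466 and the lowest astrocytic value at 11.467. It was called lower (log2 fold change -0.09 ± 0.032 SE, limma adjusted p = 0.044). The call was lost without microglial replicate 1 or 2 or astrocytic replicate 1 or 2 (limma adjusted p = 0.053 to 0.23), after equalizing the sum of 2^value (0.093), without limma's trend and robust options (0.094) and with a replicate block (0.060).

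The pore subunits of calcium channels include the L-type (Cacna1c, Cacna1d) and the P/Q-, N- and R-type (Cacna1a, Cacna1b, Cacna1e). The low-voltage T-type is encoded by Cacna1g, Cacna1h and Cacna1i. Of these 8 genes, Cacna1h was lower with microglial apoE and none was called higher. Cacna1h lies on GRCm38 chromosome 17 (25374285 to 25433783, minus strand) and encodes a T-type channel that opens near rest. Its values were 9.72, 9.69 and 9.64 with microglial apoE, against 9.82, 9.79 and 9.87 with astrocytic apoE. Every microglial library was below every astrocytic one. The gene averaged 9.68 ± 0.04 with microglial and 9.83 ± 0.04 with astrocytic apoE (SD, n = 3 each), and fell by 0.14 on the log2 scale (SE 0.031, 0.905-fold, limma adjusted p = 0.0010). Of its 9763 bp of exon, 158 bp are shared with Tpsg1 on the opposite strand. Tpsg1 had a mean log2 value of only -0.255 over the 6 libraries. The strand setting of the counting is not given in the sources used here, so reads of that stretch cannot be told apart.

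The other T-type genes did not pass: Cacna1i differed by -0.08 (95% interval -0.17 to 0.01, limma adjusted p = 0.17) and Cacna1g by -0.03 (-0.10 to 0.03, adjusted p = 0.49). Neither interval shows that these genes were unchanged. The L-type genes Cacna1c (-0.04) and Cacna1d (-0.03) and the R-type gene Cacna1e (-0.02) did not pass (limma adjusted p = 0.32 to 0.74).

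The presynaptic pair Cacna1a (P/Q-type) and Cacna1b (N-type) did not pass singly. Cacna1a stood at 10.02, 10.04 and 10.01 with microglial apoE, against 9.93, 9.99 and 10.03 with astrocytic apoE (log2 fold change 0.04, 95% interval -0.02 to 0.10, limma adjusted p = 0.33). Cacna1b stood at 11.004, 10.93 and 10.95 with microglial apoE, against 10.98, 10.98 and 11.06 with astrocytic apoE (-0.05, -0.11 to 0.02, limma adjusted p = 0.27). Their log2 ratio was -0.99, -0.89 and -0.94 in the microglial libraries and -1.06, -0.99 and -1.03 in the astrocytic ones. The ratio was higher in each microglial library than in any astrocytic library, the closest values lying at -0.987 and -0.992. It averaged 0.09 more with microglial apoE (exact two-sided permutation p = 0.10, the smallest that 3 against 3 allows).

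Alpha2delta subunits bring calcium channels to the surface and to synapses, and that of Cacna2d1 is the binding site of gabapentin. Cacna2d1 (GRCm38 chromosome 5, 15934691 to 16374511, plus strand) stood at 11.61, 11.60 and 11.60 with microglial apoE, against 11.73, 11.72 and 11.65 with astrocytic apoE. The microglial libraries lay close together and all below the astrocytic ones. The mean was 11.60 ± 0.01 with microglial and 11.70 ± 0.04 with astrocytic apoE (SD, n = 3 each), a fall by 0.10 on the log2 scale (SE 0.028, 0.935-fold, limma adjusted p = 0.013). The call was lost without microglial replicate 3 (limma adjusted p = 0.0505), astrocytic replicate 1 (0.088) or astrocytic replicate 2 (0.084). The other alpha2delta genes had differences of 0.03 (Cacna2d2, 95% interval -0.04 to 0.09) and 0.03 (Cacna2d3, -0.03 to 0.09), and neither passed in limma, although Cacna2d3 was higher in each microglial library (10.269 to 10.278) than in any astrocytic one (10.225 to 10.268).

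None of the 4 beta subunit genes, which traffic the pore subunits to the membrane, passed. Cacnb4 came nearest, at 10.47, 10.45 and 10.45 with microglial apoE and 10.57, 10.51 and 10.49 with astrocytic apoE. Its microglial values were all below the astrocytic ones (log2 fold change -0.07 ± 0.029 SE, limma adjusted p = 0.098). Cacnb1, Cacnb2 and Cacnb3 differed by -0.003, -0.005 and -0.01 (limma adjusted p = 0.77 to 0.95).

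**Figure D2:**
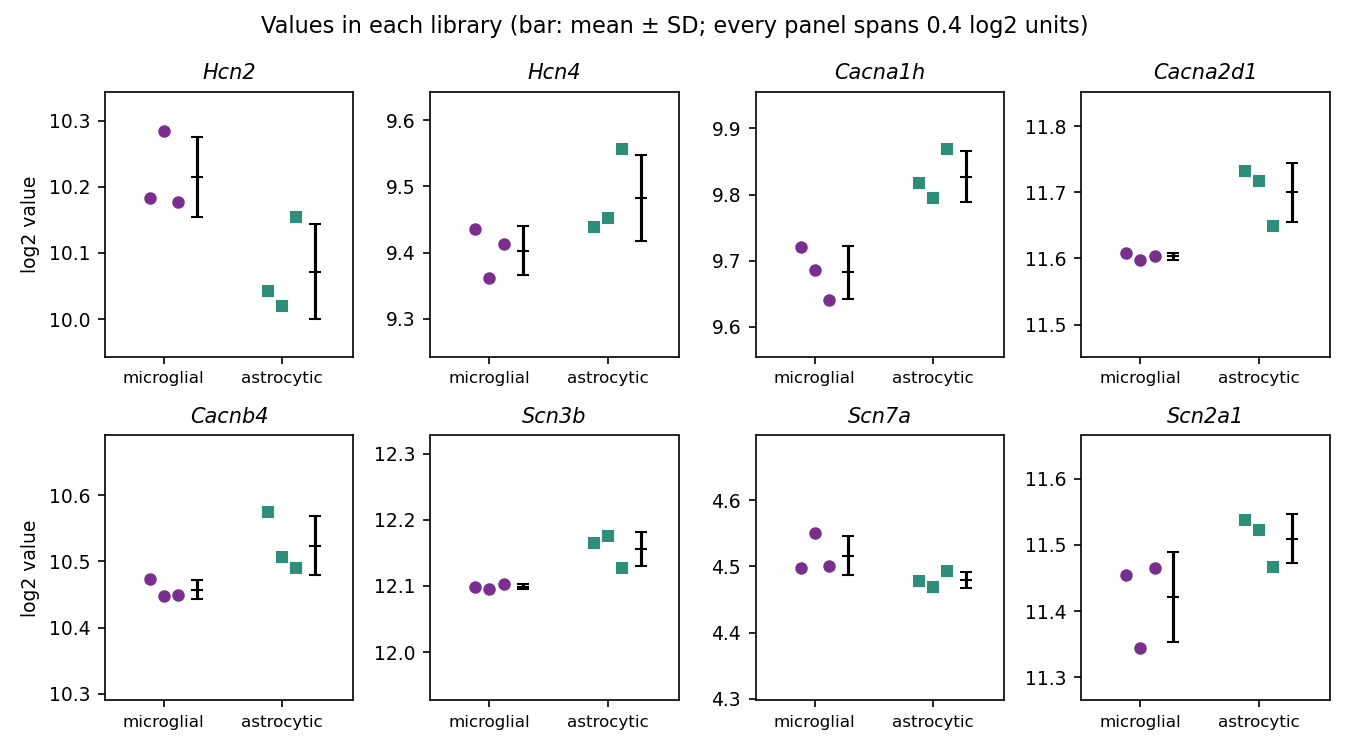
Log2 value in each library (circles, microglial apoE; squares, astrocytic apoE), with the mean and SD of each group, for the 3 called members, the other members with an unadjusted p under 0.05 (Hcn4, Cacnb4, Scn3b and Scn7a) and the related gene Scn2a1; panels have equal spans. Hcn2 and Scn7a were higher in every microglial library, and Cacna1h, Cacna2d1, Cacnb4, Hcn4, Scn3b and Scn2a1 lower in every one.

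Of the HCN genes, Hcn2 was higher with microglial apoE and none was called lower. Hcn2 (GRCm38 chromosome 10, 79716634 to 79736108, plus strand) encodes a subunit that responds strongly to cyclic AMP. Its values were 10.18, 10.28 and 10.18 with microglial apoE, against 10.04, 10.02 and 10.15 with astrocytic apoE. The groups did not overlap, with microglial replicate 2 the highest library and astrocytic replicate 3 the nearest to the microglial values. The gene averaged 10.21 ± 0.06 with microglial and 10.07 ± 0.07 with astrocytic apoE (SD, n = 3 each), a 1.10-fold rise (log2 fold change 0.14 ± 0.036 SE, limma adjusted p = 0.0057). Without astrocytic replicate 2 the difference was 0.12 and the call was lost (limma adjusted p = 0.051).

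Hcn4, which gives slow pacemaker currents in heart and thalamus, stood at 9.44, 9.36 and 9.41 with microglial apoE, against 9.44, 9.45 and 9.56 with astrocytic apoE. The highest microglial value lay just below the lowest astrocytic one, and the difference did not pass (log2 fold change -0.08 ± 0.034 SE, limma adjusted p = 0.088). Hcn3 differed by -0.03 (limma adjusted p = 0.55).

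The start regions of Hcn2 and Cacna2d1 are shown because these called members had a window in the RefSeq promoter table (GRCm38.p6), which covers 250 bases before to 50 after an annotated start. Capitals mark GC boxes (GGGCGG on either strand, each start counted, also where neighbours share a letter), the binding motif of Sp1-type factors. Hcn2 is chr10:79716384-79716683, plus strand, and Cacna2d1 is chr5:15934441-15934740, plus strand.
Hcn2: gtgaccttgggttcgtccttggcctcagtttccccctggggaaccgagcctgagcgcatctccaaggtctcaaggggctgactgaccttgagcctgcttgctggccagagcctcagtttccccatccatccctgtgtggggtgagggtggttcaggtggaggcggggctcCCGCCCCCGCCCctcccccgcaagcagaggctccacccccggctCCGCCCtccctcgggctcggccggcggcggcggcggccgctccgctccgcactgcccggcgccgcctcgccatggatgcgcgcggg
Cacna2d1: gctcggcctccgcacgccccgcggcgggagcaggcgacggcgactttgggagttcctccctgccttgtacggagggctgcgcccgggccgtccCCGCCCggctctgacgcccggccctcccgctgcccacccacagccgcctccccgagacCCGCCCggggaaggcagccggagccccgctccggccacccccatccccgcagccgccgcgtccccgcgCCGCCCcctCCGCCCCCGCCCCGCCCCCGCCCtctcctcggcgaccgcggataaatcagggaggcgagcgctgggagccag
The Hcn2 window was 72.3% G or C and held 3 GC boxes, and the Cacna2d1 window was 80.0% G or C and held 7. The genes moved in opposite directions. Over the 28 windows of the 19 members in the table, the median G and C content was 66.2%, against 52.7% over all 32851 windows, and 14 of the 28 held a GC box, against 35.7% of all. The letters of the TATA box (TATAAA), searched at any position, were found in 1 member window (3.57%), against 13.6% of all. In that window, of Cacna1d, they lay at positions -207, -205 and -150 from the start site. The core of the interferon-stimulated response element (GAAANNGAA) was found in 2 member windows (7.14%), of Cacnb1 and Cacnb3, against 8.56% of all windows. None of the member windows held the cyclic AMP response element TGACGTCA (1.79%), or the left (TTCAGCACC, 0.371%) or right (GGACAGCGC, 0.405%) part of RE1, the silencer site that the repressor REST binds in many neuronal genes. Both strands were searched for each motif.

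Levels can be compared between genes after division by exon length. On the log2 scale per kb of merged GENCODE exons, averaged over the groups, Scn3b was the highest member at 9.68, ahead of Cacnb3 (8.82), Hcn2 (8.47) and Cacnb1 (8.45). Among sodium alpha subunits Scn3a (6.88) was above Scn8a (6.49) and Scn1a (5.48), and the related Scn2a1 was above these at 7.80. Cacna1b (7.67) led the calcium pore subunits and Cacna1d (5.26) was the lowest of them. Within the HCN genes Hcn2 was followed by Hcn3 (7.70) and Hcn4 (6.83). Merged exons of all annotated transcripts overstate the length of genes with many isoforms, so these orders are approximate.

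**Figure D3:**
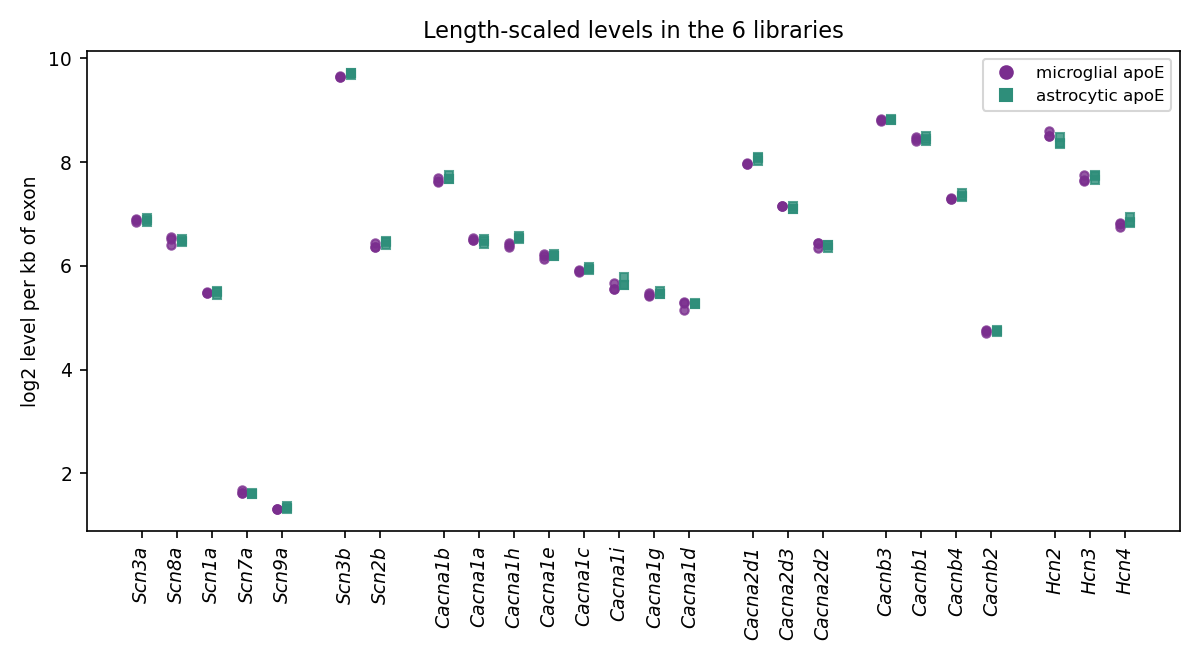
Log2 level per kb of exon of 25 of the 28 genes in each library, by subunit class and in falling order within a class (circles, microglial apoE; squares, astrocytic apoE). Differences between genes, from Scn9a at 1.32 to Scn3b at 9.68, far exceed those between the groups.

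The 6 matching symbols below the threshold were not tested. Cacna2d4 stood just under it, with 3.32, 3.31 and 3.29 in the microglial and 3.32, 3.36 and 3.32 in the astrocytic libraries, only 2 of which reached 3.32 unrounded. The member with the lowest values was Scn7a, well above the threshold at 4.47 to 4.55. Scn4b, a beta subunit, lay at 3.04 to 3.06, Scn11a and Scn10a, channels of sensory neurons, near 2.2 and 1.2, and the retinal channel gene Cacna1f near 1.3. Scn4a, the skeletal muscle channel, was listed at 0 in all 6 libraries.

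Genes that act with these channels were examined as 6 lists with 69 symbols, of which 60 were tested. In limma 4 were called higher (6.67%, against 13.0% of all tested genes) and 9 lower (15%, against 11.8% of all), together 21.7%, against 24.9% of all. Calm2 and Calm3, which encode calmodulin, a calcium sensor that regulates sodium and calcium channels, fell by 0.15 and 0.10 on the log2 scale (limma adjusted p = 8.3e-05 and 0.0057). Calm2 averaged 13.66 ± 0.03 with microglial and 13.81 ± 0.02 with astrocytic apoE (SD, n = 3 each). Cbarp, an inhibitor of calcium channels, rose (0.10 ± 0.030 SE, limma adjusted p = 0.014). Of 14 tested calcium channel regulators, 1 was called higher and 3 lower, with a list median of 0.001. The Cbarp call was lost without astrocytic replicate 1 or 2 (limma adjusted p = 0.11 and 0.098).

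Of 5 tested HCN partners, 2 rose: Flna, an actin cross-linker that binds HCN channels (0.26 ± 0.029 SE), and Vapa, a protein of the endoplasmic reticulum (0.13 ± 0.026 SE). Pex5l, the HCN trafficking subunit, did not pass (-0.07, limma adjusted p = 0.098), and the list median was -0.004. Of 12 sodium channel partners, Fgf13, an intracellular modulator of channel inactivation, was the only one called (-0.08 ± 0.028 SE, limma adjusted p = 0.032, list median -0.03). That call was lost without microglial replicate 1 or 3 or astrocytic replicate 1 or 2 (limma adjusted p = 0.084 to 0.19), with a replicate block (0.057), after equalizing the sum of 2^value (0.074) and without the filter for low values (0.054). The axon initial segment scaffolds Ank3 (-0.02) and Sptbn4 (0.06) did not pass. Of 6 tested gamma family genes, Cacng5, which assists AMPA receptors, fell by 0.17 on the log2 scale (SE 0.034, limma adjusted p = 5.3e-04, list median -0.01). None of the 4 tested genes of the NALCN leak channel complex was called (list median -0.03, and 0 had an unadjusted limma p under 0.05).

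Of 19 tested genes of calcium stores and calcium extrusion, 4 were called lower and 1 higher in limma (list median -0.02). The sodium-calcium exchanger Slc8a2 (-0.14 ± 0.030 SE), the IP3 receptor Itpr1 (-0.13 ± 0.035 SE) and the plasma membrane calcium pump Atp2b4 (-0.11 ± 0.029 SE) fell, and the IP3 receptor Itpr2 rose (0.10 ± 0.032 SE). The Itpr1 call was lost without microglial replicate 2 (limma adjusted p = 0.054), and the Itpr2 call without microglial replicate 1 or 3 or astrocytic replicate 1 (adjusted p = 0.093 to 0.16) and with library medians made equal (0.074).

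Markers of the cells in the cultures moved in the same libraries, and their part in the channel results was not tested. General neuronal markers were present, with Map2 at 14.53 with microglial and 14.63 with astrocytic apoE, and their summed 2^value was 52789 to 54163 against 55073 to 55751 (3 of 8 called lower). For excitatory neuron markers the sums were 13101 to 13225 with microglial and 14987 to 15430 with astrocytic apoE (4 of 8 lower). Neurod6 differed most among these 8 (log2 fold change -0.47), where the list median was -0.09 and 2 markers had positive values. For inhibitory neuron markers the sums were 31412 to 31976 with microglial and 27516 to 27651 with astrocytic apoE (7 of 8 higher). Astrocyte markers summed to 50903 to 51764 with microglial and 58912 to 59674 with astrocytic apoE (7 of 10 lower, 1 higher), and markers of dividing cells to 1290 to 1304 and 2025 to 2090 (8 of 8 lower). Oligodendrocyte lineage markers summed to 6160 to 6332 with microglial and 5999 to 6296 with astrocytic apoE (1 of 8 higher, 2 lower). Microglial markers summed to 162 to 164 with microglial and 159 to 161 with astrocytic apoE. These ranges did not overlap (5 of 8 tested, 0 called in limma, 2 with an unadjusted p under 0.05). P2ry12, Tmem119 and Trem2 were below the threshold. Endothelial and mural markers summed to 329 to 337 with microglial and 316 to 324 with astrocytic apoE (2 of 8 tested, 0 called in limma, 1 with an unadjusted p under 0.05). None of the markers was at exactly 0. Fewer cells of a type and less RNA per cell cannot be told apart in such bulk samples.

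Of 28 members, 20 had a negative log2 fold change as deposited, and the count moved with scaling: 23 with library medians made equal, 15 with the sum of 2^value made equal and 22 with that sum taken without mitochondrially encoded genes. Over all tested genes the share with a negative value was 50.4% as deposited and 63.2%, 40.3% and 58.2% under these scalings, and the share of calls that were higher was 52.4% as deposited and 34.8%, 65.6% and 41.6% under these scalings. Hcn2 stayed called higher, and Cacna1h and Cacna2d1 called lower, under each of them.

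**Figure D4:**
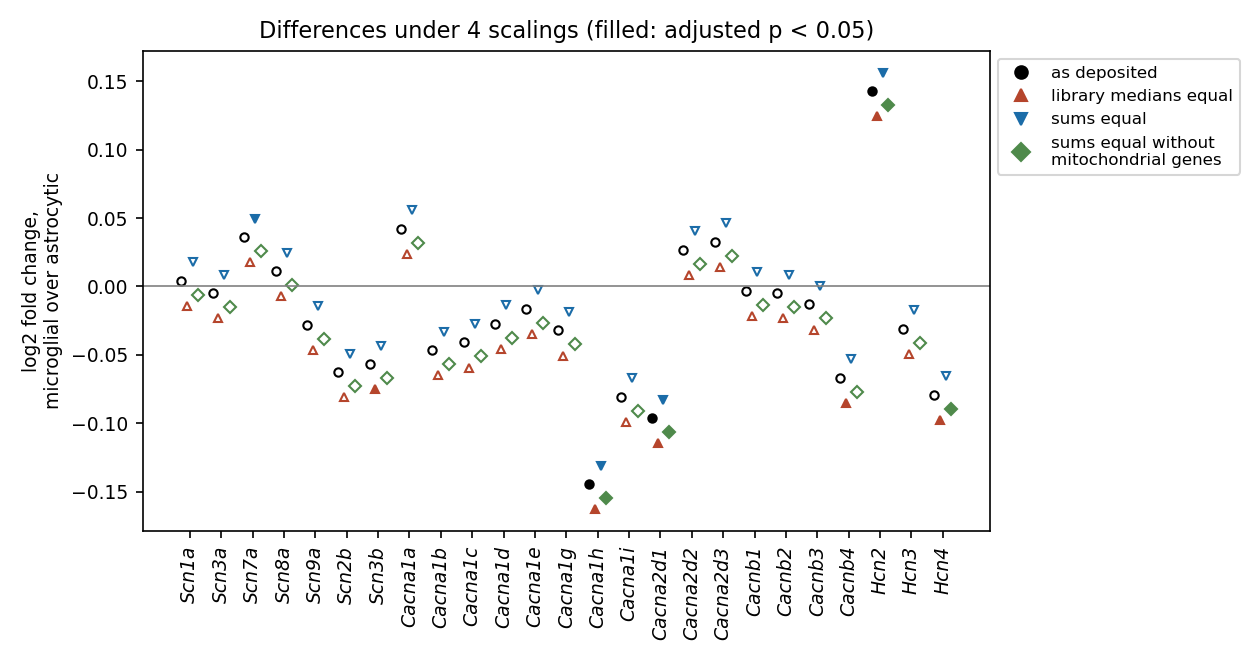
Log2 fold change of 25 of the 28 genes, microglial over astrocytic apoE, as deposited and under the 3 other scalings; filled symbols passed a limma adjusted p under 0.05. The scalings shift all genes together by under 0.02, and 6 of the 25 change sign, all near 0.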

How the data were processed

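RNA of 6 samples was sequenced on a DNBSEQ platform, per the labels. The authors deposited 1 log2 value per symbol and sample; per the submitters' processing notes, the tools were FastQC, HISAT2, featureCounts and DESeq2 and the build GRCm38, with no roles or versions given. The same 21031 symbols were at 0 in every library and 0 symbols in only some, the pattern of a regularized logarithm, a transformation inferred here because no source used states it. It shrinks differences and spreads of weakly expressed genes, and the depth of the libraries is unknown. For genes at 8 to 10 the median SD within a group was 0.0339. Counting error alone would give 0.0638 at a value of 9 were these plain counts. The same comparison, at the middle of each range, gave 0.0203 against 0.255 for genes at 4 to 6. It gave 0.0315 against 0.128 at 6 to 8 and 0.0304 against 0.0319 at 10 to 12. The SEs and p-values given may thus be too small, most so for weakly expressed genes.

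Genes at or above the log2 of 10 in at least 3 libraries were tested with limma 3.58.1 (trend and robust) in R 4.3.3, with p-values adjusted by Benjamini-Hochberg over all 15055. Means are given with SDs, and log2 fold changes with limma's SEs. Ratios of 2 genes were tested by exact permutation. The procedure was tested on simulated data. It called 29% of 100 genes changed by 0.1 on the log2 scale and 95% of 100 changed by 0.3. Of its 129 calls, 5 were false. Most changes of 0.1 were thus missed in the simulation. It held 200 changed genes, whereas 3742 genes were called in the data, which makes the adjusted threshold less strict. The shares recovered therefore need not hold for these data, where Cacna2d1 was called at a log2 fold change of -0.096. Tables and figures used Python 3.11.15, pandas 2.3.3, numpy 2.4.6 and matplotlib 3.10.9. Positions and exon lengths are from GENCODE M21. Exons of 9 members overlap another gene, always on the opposite strand, so their counts are uncertain there: Cacna1a, Cacna1d, Cacna1h, Cacna2d2, Cacnb1, Cacnb2, Cacnb4, Hcn3 and Scn9a.

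For 3 members and some related genes, single values are not reported here and were left out of the figures; they stay in every count. Values are given in every library for called members and for the genes of the 2 ratios. Other members are given by difference or adjusted p, and of each related list the called genes, or the 4 with the smallest p where more were called. Library values of Hcn4, Cacnb4, Scn3b, Scn7a and Cacna2d3, uncalled related genes and Scn2a1 were added after their values were seen. The members and lists were chosen with earlier results of these data known.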

Additional observations from a re-analysis of the deposited data

How the results depend on the processing

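Of the called members, Cacna1h was called in all 13 alternatives (log2 fold change -0.16 to -0.12, limma adjusted p = 2.7e-04 to 0.015), Hcn2 in 12 (0.11 to 0.18) and Cacna2d1 in 10 (-0.12 to -0.08). Members called higher numbered 1, and 2 after equalizing the sum of 2^value, where Scn7a passed (0.05). Members called lower numbered 2, and 5 with library medians made equal, where Cacnb4 (-0.09), Hcn4 (-0.10) and Scn3b (-0.08) passed; Hcn4 also passed with the sum equal without mitochondrially encoded genes (-0.09). Leaving out 1 library gave 0 to 1 members higher and 1 to 4 lower, with Cacnb4 and Scn3b passing without astrocytic replicate 3. These 4 were the uncalled members, of 25, that passed in any alternative, and 11 uncalled members near 0 changed sign in at least 1, with no value beyond 0.06 in size. Of related genes, 2 to 7 were higher and 7 to 10 lower with 1 library left out, and 14 lower with library medians made equal. The Scn8a to Scn3a difference of 0.02 ranged from -0.015 to 0.047 with 1 library left out, turning negative without microglial replicate 3 (-0.015) or astrocytic replicate 1 (-0.012). That of Cacna1a to Cacna1b ranged from 0.06 to 0.11. Calls over all genes ranged from 2556 to 4541 with 1 library left out. The cause of these changes was not tested.

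The groups share replicate numbers. Same-numbered libraries deviated from their group means with correlations of 0.04, -0.12 and -0.19, so the numbers were not taken as pairs. With a replicate block, 3387 genes were called, against 3742 without it, and the members called were still 1 higher and 2 lower.

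The deposited values do not hold the depth, so counting error cannot be given. A missed threshold does not show that a channel gene was unchanged.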
